A study of Mus musculus with 2 samples.

Results

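The Agilent mouse array used for mDE6 cells, a line labelled as odontogenic epithelium, carried probes for intergenic intervals that have no gene name and are called only by their coordinates and orientation. These unnamed long intergenic noncoding RNA (lincRNA) regions were taken as every non-control probe whose array name had the form of an interval followed by F (forward) or R (reverse). They came to 3229 regions with 4449 of the 56605 probes of the array, 2227 forward and 2222 reverse. Of the regions, 832 had probes of both orientations, 1236 had forward probes only and 1161 had reverse probes only. A single probe stood for 2261 regions, 2 probes for 782 and 3 or more for 186. The intervals were 62 to 538251 bases long with a median of 7207, whereas each probe covered 60 bases, so that most of an interval was not sampled. RNA came from control cells and from cells given CHIR99021 for 6 h, with 1 array per condition and hence no replicate check of any difference and no test. The dose is 5 mM in the labels and 5 μM in the methods, and the control is labelled as DMSO but described in the methods as untreated. Both arrays were neighbours on 1 slide, so that an effect of place on the slide and of treatment cannot be told apart. In such bulk RNA, fewer cells of a type and less RNA per cell cannot be told apart either.

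LincRNAs are transcribed, spliced and usually polyadenylated RNAs between protein-coding genes that have no long reading frame. Many were first recognised from chromatin marks of active promoters and transcribed bodies, which give the extent of a transcription unit but not its exons. Most lincRNAs are less abundant and more cell type restricted than messenger RNAs, and some act on genes close to them. CHIR99021 inhibits the kinase GSK-3, which marks β-catenin for degradation, so that β-catenin accumulates and acts with TCF and LEF factors on transcription.

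The treatment was read from 9 genes that the β-catenin pathway is known to induce, of which 6 were well above background in the control and 8 after CHIR99021. Lef1 was at 239 on the control array and 690 after CHIR99021, Rnf43 was at 69.3 and 167 (ratio 2.49 after scaling), and Nkd1, an inhibitor of the pathway, was not well above background in the control and was at least 25.8-fold higher. Axin2 was at least 1.66-fold higher, Znrf3, Tcf7, Notum and Ccnd1 had ratios of 1.59, 1.55, 1.30 and 1.18, and Sp5 was detected on neither array. The cell label was then set against its markers. Of 14 odontogenic epithelial markers 4 were well above background on each array, among them Trp63 and Krt14, while Cdh1, Epcam and Krt8 were not on either array. The summed signals of these 14 were 2951 in the control and 3565 after CHIR99021. Of 10 mesenchymal markers 9 were well above background, including Vim and Col1a1, with summed signals of 476534 and 432652. Such sums compare the arrays and not the lists. All 3 immune markers were well above background on both arrays as well. The part of this marker pattern in the region signals was not tested.

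Probe sequences are shown for 2 loci at which several probes were lower after CHIR99021, and for some of the strongest region signals. They are given 5′ to 3′ as printed on the array, with mm9 positions from the array files, and capitals mark the polyadenylation hexamers AATAAA and ATTAAA. The hexamers were searched in the probe as written and not on its complement. Either of them was in 6.45% of the region probes and in 13.95% of all other probes. At the chromosome 17 locus the forward probes lay within 2 kb of each other and did not overlap.
chr17:26911743-26911802, plus strand: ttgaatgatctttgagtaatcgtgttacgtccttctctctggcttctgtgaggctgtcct
chr17:26911873-26911932, plus strand: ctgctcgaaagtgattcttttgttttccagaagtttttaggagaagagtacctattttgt
chr17:26912182-26912241, plus strand: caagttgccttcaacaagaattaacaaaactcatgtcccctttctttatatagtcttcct
chr17:26913509-26913568, plus strand: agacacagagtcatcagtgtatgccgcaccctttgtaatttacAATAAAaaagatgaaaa

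At the chromosome 6 locus the reverse probes lay at both ends of a 31.2 kb stretch, with the first 2 of them neighbouring each other.
chr6:131272359-131272418, minus strand: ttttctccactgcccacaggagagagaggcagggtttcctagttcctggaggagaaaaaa
chr6:131272472-131272531, minus strand: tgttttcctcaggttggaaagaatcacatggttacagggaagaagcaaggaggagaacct
chr6:131303553-131303612, minus strand: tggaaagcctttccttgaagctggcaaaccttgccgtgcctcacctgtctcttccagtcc

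From the 6 strongest signals, 2 probes that hold a hexamer and 2 with a very high content of G and C are shown.
chr11:22686751-22686810, minus strand: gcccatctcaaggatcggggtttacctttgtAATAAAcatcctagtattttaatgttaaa
chr17:48073450-48073509, plus strand: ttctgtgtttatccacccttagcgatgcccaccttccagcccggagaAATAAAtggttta
chr14:78936616-78936675, plus strand: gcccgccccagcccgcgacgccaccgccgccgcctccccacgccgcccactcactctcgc
chr6:83406215-83406274, plus strand: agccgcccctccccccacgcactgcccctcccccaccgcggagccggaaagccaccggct

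By the flag of the scanner software, 1482 of the 4449 region probes (33.3%) were well above background in the control and 1398 (31.4%) after CHIR99021. All other probes were flagged more often, at 48.9% and 47.3%. The shares moved with the place on the array. In the earlier rows, up to the middle row, 30.7% of the region probes were flagged so in the control and 29.1% after CHIR99021. In the later rows these were 35.9% and 33.8%. For all other probes the earlier rows had 47.9% and 46.3%, and the later rows had 13021 of 26056 probes in the control and 48.3% after CHIR99021, so that the region probes were less often detected in both stretches. Among probes with a gene name, those of protein-coding genes reached 56.5% and 54.8%, and those of genes annotated as long noncoding RNA 18.2% and 16.5%. The unnamed regions thus lay between both classes on both arrays.

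**Figure D1:**
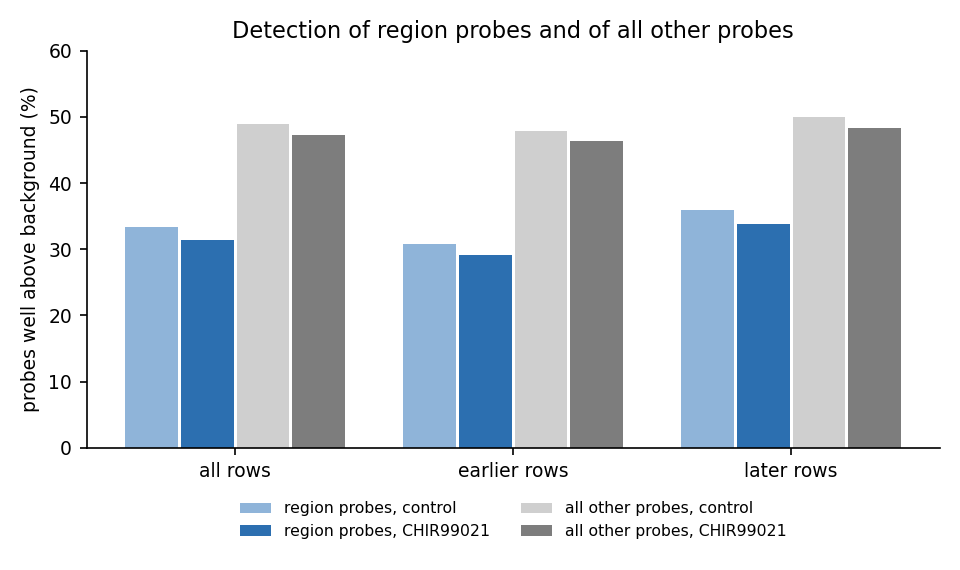
Share of probes well above background (y axis, percent) for region probes and all other probes on each array, over all rows and in the earlier and later rows (x axis). Region probes lie at 29.1% to 35.9% and all other probes at 46.3% or above.

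On both arrays 1292 region probes were well above background, 190 only in the control, 106 only after CHIR99021 and 2861 (64.3%) on neither. Probes seen on 1 array only were mostly in the later rows, with 125 of the 190 and 78 of the 106. Their spots were more often uneven. A spot was called uneven when the SD of its pixels over their mean was above 0.261, the 99th percentile of well-measured spots in the earlier rows. Of the control-only probes, 42.4% were uneven in the later rows and 4.62% in the earlier rows. Of the CHIR99021-only probes, 51.3% and 17.9% were. Of the region probes seen on both arrays, 3.26% to 3.70% were uneven in the later rows and 0.810% in the earlier rows. An on/off pattern of a region therefore came more often with an uneven spot than a signal on both arrays did.

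Region probes with very strong signals were few. Signals over 10000 were read from 41 region probes (0.922%) on each array, and the 41 of the control array lay in 36 regions. None of these 41 met the criteria for change given below. Of all probes tested 2.72% were lower and 2.35% higher by them, so that a count of 0 among 41 does not set these probes apart. Their ratios ran from 0.799 to 1.32 with a median of 0.981. Among them 12 (29.3%) were at least 70% G plus C, against 58 (1.30%) of all region probes, and 8 (19.5%) held a hexamer, against 287 (6.45%). Signals of different probes depend on their sequences and are not amounts that can be compared.

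The strongest was the reverse probe of chr11:22681800-22707775, which holds AATAAA, with 132276 in the control and 125184 after CHIR99021, a ratio of 0.982. The forward probe of the same region gave 965 and 1058, a ratio of 1.14. Next came chr17:48068261-48087905 forward, with AATAAA near its end, at 111148 and 130240. It was printed 10 times on each array, with single spots from 106156 to 116545 in the control and from 123863 to 136091 after CHIR99021, so that the spots of the 2 arrays did not overlap. Its ratio was 1.22, and the SD of the log2 ratio over its spots was 0.034, which covers the spots only and not the cultures. The other 4 region probes printed 10 times had ratios of 0.924 to 1.05. The reverse probe of chr17:17481706-17482457, again with AATAAA, gave 78782 and 74480.

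Some of the strong signals came from probes rich in G and C. That of chr14:78924115-78938125 forward, 83.3% G plus C, gave 95923 and 92954, and the forward probe of chr6:83368261-83407280, 78.3%, gave 71278 and 70101. At chr12:73838608-73862621 both orientations were strong from neighbouring probes that do not overlap. The reverse probe (78.3% G plus C) gave 65850 and 63511 and the forward probe (80.0%) gave 46503 and 42633, with ratios of 1.00 and 0.951. At chr7:108209996-108216032 the reverse probe, with 50% G plus C and no hexamer, gave 77483 and 70742 and the forward probe 1439 and 1375. All 6 of these probes had ratios between 0.947 and 1.02.

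In the 832 regions with both orientations, detection could be compared between the strands of an interval, although a probe below background does not show that its strand was silent. On the control array 164 (19.7%) had both orientations well above background, 153 the forward only, 202 the reverse only and 313 (37.6%) neither. On the CHIR99021 array these were 146, 162, 202 and 322. The state was the same on both arrays in 724 regions. The reverse orientation was detected in 51.7% of regions in which the forward was, and in 39.2% of the others, on the control array. A region could hold several probes of 1 orientation, and these did not always show the same state. Of 316 region and orientation sets with 2 or more probes, all probes were well above background in 69 on the control array, some in 114 and none in 133. After CHIR99021 these were 60, 105 and 151.

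Between the conditions the region probes moved little as a group. For the 1292 region probes measured on both arrays, that is, well above background on each, the median log2 ratio of CHIR99021 over control was 0.03, with quartiles of -0.16 and 0.24. All other probes had a median of 0.04 and quartiles of -0.18 and 0.24. The SD of the log2 ratio was 0.44 for the region probes and 0.41 for the others, and it was wider in the later than in the earlier rows for the region probes (0.49 and 0.37) as for the others (0.45 and 0.37). The ratios ran from 0.124 to 7.80, and 41 region probes (3.17%) differed more than 2-fold, against 2.69% of all other probes.

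A region probe was counted as lower where its ratio did not exceed 0.66 and its Z-score did not exceed -2.0, and as higher from a ratio of 1.5 and a Z-score of 2.0 upwards. The Z-score set the log2 ratio of a probe against the 500 probes nearest to it in mean signal. Of 1588 region probes that either array or both showed well above background, 33 (2.08%) were lower and 40 (2.52%) were higher. Over all 28066 probes tested 2.72% were lower and 2.35% higher, so over all rows and spots the shares among region probes were near those of the array. In the earlier rows 7 of 710 region probes were lower and 6 higher, where the background was 1.78% lower and 1.24% higher. In the later rows 26 of 878 were lower and 34 higher, with a background of 3.58% and 3.36%. The named long noncoding RNA genes had 5.45% lower and 4.19% higher among 954 probes tested, and protein-coding genes 2.63% and 2.22%.

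**Figure D2:**
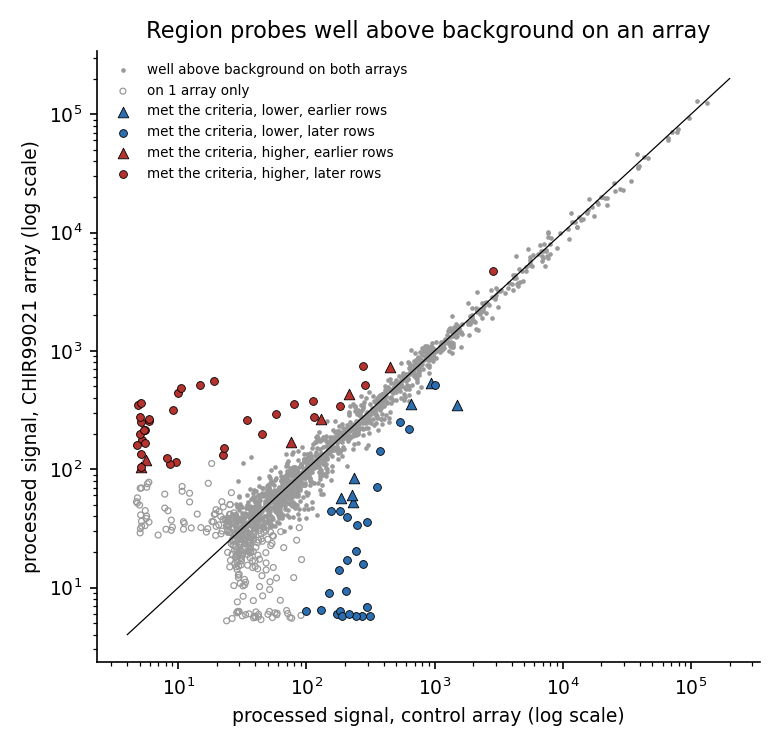
Processed signal of the region probes well above background on an array, control (x axis) against CHIR99021 (y axis), both on log scales, with the line of equality and with probes that met the criteria marked by direction and by array rows. Of the marked probes 17 lower and 14 higher ones were well above background on both arrays, and the brightest probes lie close to the line.

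Of the 33 lower probes 17 were well above background on both arrays, and of the 40 higher probes 14. These were 1.32% and 1.08% of the region probes measured on both arrays, against 2.07% and 1.66% of all probes so measured. With uneven spots left out, 1.26% of region probes were lower and 1.47% higher, against 2.47% and 1.89% of all probes. The brighter spot was uneven in 24 of the 26 lower probes of the later rows and in 25 of the 34 higher probes there. In the earlier rows it was uneven in 0 of 7 lower and in 1 of 6 higher probes. All 16 lower probes seen on the control array alone had an uneven spot, as had 21 of the 26 higher probes seen on the CHIR99021 array alone. The part of uneven spots in these ratios was not tested beyond this count.

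**Figure D3:**
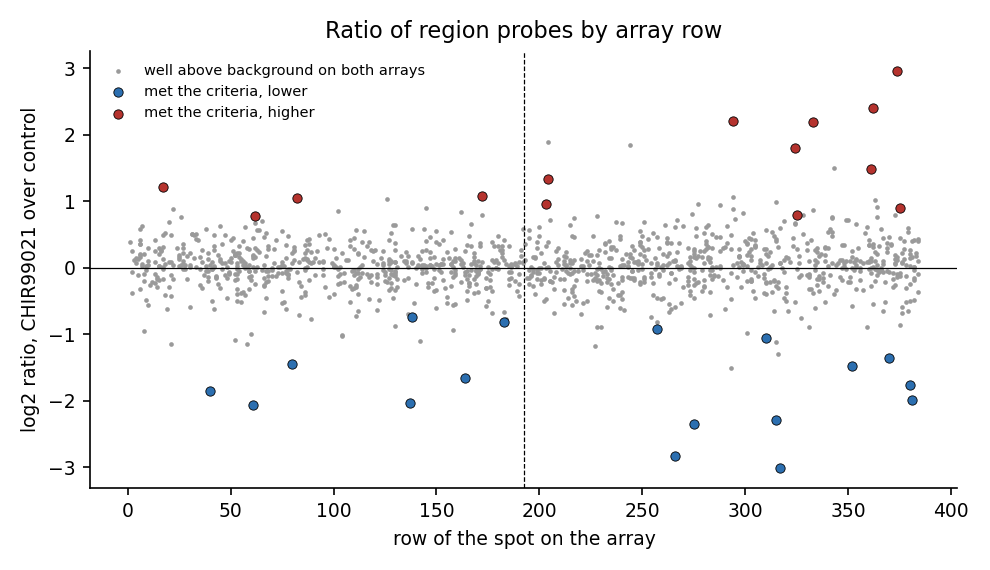
Log2 ratio of CHIR99021 over control (y axis) by the row of the spot on the array (x axis) for region probes measured on both arrays, with lower and higher probes marked and a dashed line between the earlier and later rows. The SD of the log2 ratio is 0.37 in the earlier rows and 0.49 in the later rows, and the extremes of 0.124 and 7.80 in ratio lie in the later rows.

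Overlapping intervals of 1 orientation were joined into 3156 loci, so that another probe could be read beside a changed one where there was one. In the later rows 7 of the 26 lower probes had another probe of their locus detected in the control, and 1 of these 7 had another that was also lower. The other probes that were well above background on both arrays had ratios from 0.367 to 1.31 with a median of 1.02. For the higher probes of the later rows, 6 of 34 had another probe of the locus well above background after CHIR99021, none of them higher, and those measured on both arrays had ratios from 0.717 to 1.23. In the earlier rows 5 of the 7 lower probes had another detected probe, and 4 of these 5 had another that was lower. All of these pairings came from 2 loci, on chromosomes 17 and 6, since no other locus held 2 or more lower probes. For the higher probes of the earlier rows, 2 of 6 had another detected probe, none of which met the criteria. Those measured on both arrays had ratios from 1.07 to 1.24. Another was well above background after CHIR99021 only, in the same direction as the called probe of its locus. Of 165 loci with 2 or more probes well above background on both arrays, 3 had every such probe at a ratio of 0.66 or below and 0 had every one at 1.5 or above.

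Pairs of probes from the same region and orientation, both well above background on both arrays, differed in log2 ratio by a median of 0.16 over 82 pairs of 66 regions, and the 90th percentile was 0.55. Their ratios had the same sign in 57 of the 82. Pearson's r was 0.43 and Spearman's rho 0.47, across pairs that share the same 2 arrays. Without the single pair of the chromosome 17 locus, r was 0.24 and rho 0.45 over 81 pairs. For the 20 pairs with both probes in the earlier rows r was 0.80 and rho 0.59, and without the chromosome 17 locus r was 0.36 and rho 0.52. Forward and reverse probes of the same region, in 132 regions with both measured on both arrays, had r of 0.10 and rho of 0.13.

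**Figure D4:**
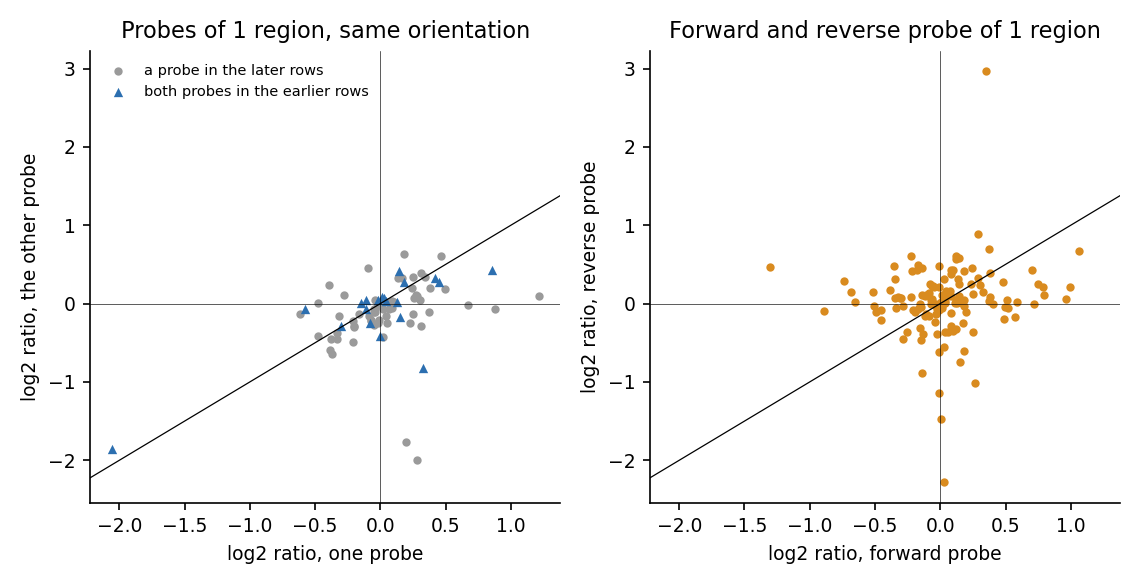
Log2 ratio of CHIR99021 over control for pairs of probes from 1 region, of the same orientation on the left (82 pairs) and of opposite orientation on the right (132 regions), with the line of equality. Pearson's r is 0.43 for the same orientation, 0.24 without the pair near -2 on both axes from the chromosome 17 locus, and 0.10 for opposite orientations.

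The chromosome 17 locus had the most probes that changed together. It comprised chr17:26911032-26912366 and chr17:26911397-26917047, which overlap, both in the forward orientation. In the first interval, 2 of the 3 probes gave 227 and 229 on the control array and 60.7 and 53.1 after CHIR99021. Both were clearly dimmer after treatment, with ratios of 0.277 and 0.240 at Z-scores of -3.01 and -3.39. The probe of the second interval gave 1485 and 351, a ratio of 0.245 (Z-score -5.81). The remaining probe of the first interval stayed below that level on each array. All 4 spots lay in the earlier rows, and none of the 3 changed probes had an uneven spot. The second interval's reverse probe gave 40.3 in the control, from an uneven spot in the later rows, and was not well above background after CHIR99021.

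Distances to genes were taken between array probes, since gene bounds were not used here. The nearest gene probe on the same strand was of Bnip1, which codes for a membrane fusion protein of the endoplasmic reticulum, 9.27 kb downstream. One of its probes in the earlier rows gave 498 and 500, a ratio of 1.04, and another 89.5 and 94.4, a ratio of 1.09. The remaining Bnip1 probe, in the later rows, gave 610 and 405, a ratio of 0.689. Nkx2-5, a homeobox gene on the opposite strand, was 62.1 kb away and not well above background on either array. Crebrf lay upstream on the same strand, with probes starting 16.7 and 35.1 kb before the first region probe. The farther one was well above background in the control only, at 61.3 against 19.7 after CHIR99021, from spots that were not uneven. It was at least 2.25-fold lower, with a Z-score of -0.83 that did not meet the criteria. The nearer one was dim in both conditions. These forward region probes thus lie between array probes of Crebrf and Bnip1. Whether they lie outside both genes was not tested.

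The chromosome 6 locus comprised chr6:131263850-131314850 and chr6:131272447-131303615 in the reverse orientation. One probe of the first interval gave 628 in the control and 217 after CHIR99021, a ratio of 0.360 (Z-score -3.76). The other gave 83.8 and was not well above background after CHIR99021, at least 3.07-fold lower. Its Z-score of -1.16 did not meet the criteria. With normexp background correction its log2 ratio was -0.65. That setting added an offset of 50 to the signals of both arrays, which by itself draws ratios of dim probes towards 1. The probe of the second interval, 31.2 kb away, gave 236 and 83.6, a ratio of 0.367 (Z-score -2.92). All 3 reverse probes were dimmer after treatment, in earlier and in later rows, and none of their spots was uneven. The forward probe of the first interval lay between them and gave 327 and 316, a ratio of 1.00.

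The region probes lie between the array probes of Styk1 and Ybx3, both on their strand, and whether they lie outside these genes was not tested. Styk1 codes for a receptor-like protein kinase. Its probes lay 22.2 kb or more downstream, and one of them gave 253 and 90.0, a ratio of 0.370 (Z-score -2.79). Its other probe was at least 2.96-fold lower, with a Z-score of -1.40. Ybx3, an RNA-binding cold shock domain protein on the other side, gave 21851 and 25375, a ratio of 1.20 that did not meet the criteria. Magohb, an exon junction complex subunit beyond Styk1, had ratios of 0.903 and 0.978. The region probes and Styk1 were lower together on these arrays, which have no replicate, whereas Ybx3 and Magohb did not meet the criteria.

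**Figure D5:**
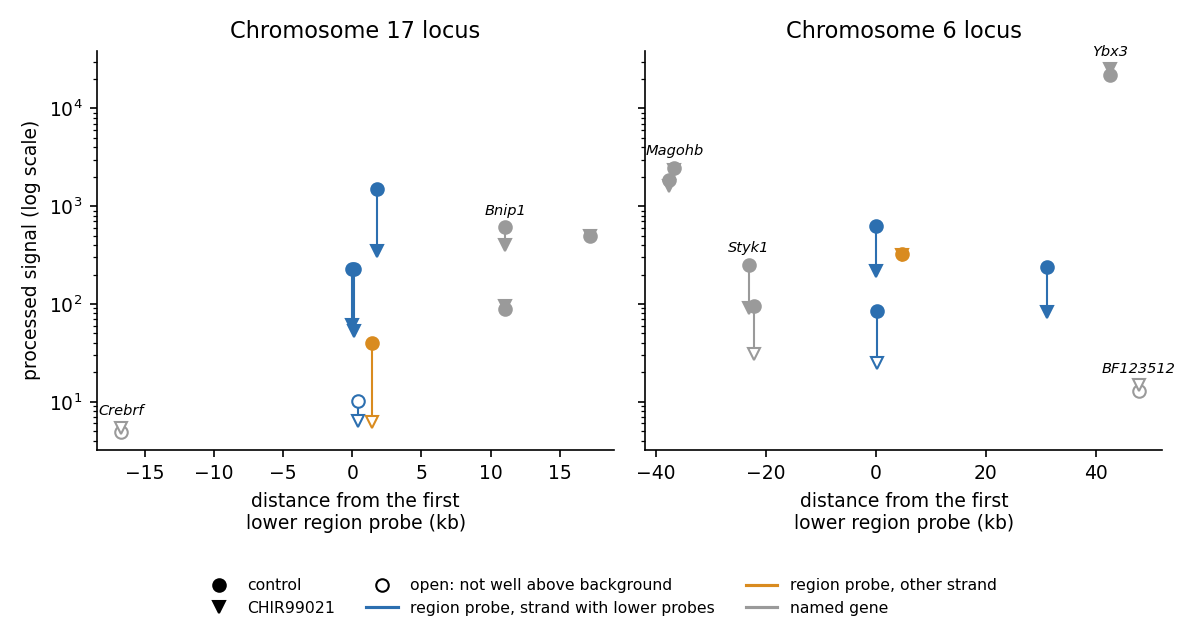
Processed signal (y axis, log scale) of probes at the chromosome 17 and chromosome 6 loci by distance along the genome (x axis, kb) from the first lower region probe, with control and CHIR99021 joined by a line and open symbols for signals not well above background. The 3 detected forward probes on chromosome 17 have ratios of 0.240 to 0.277, and on chromosome 6 the reverse region probes at 0.360 and 0.367 lie beside Styk1 at 0.370.

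On chromosome 13, a locus had every detected probe at a ratio of 0.66 or below but met no Z-score. It was in the reverse orientation, with probes of chr13:94200051-94200598 at 783 and 492 (ratio 0.652) and of chr13:94182877-94203935 at 72.4 and 39.8 (ratio 0.570). Its other 5 probes were not well above background. Jmy, an actin nucleation factor 3.81 kb from the first of them on the same strand, gave 212 and 147, a ratio of 0.717.

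Among probes measured on both arrays, the lowest ratio came from the reverse probe of chr7:71220656-71221612, with 297 in the control and 35.6 after CHIR99021, a ratio of 0.124. It was followed by chr9:40029344-40050160 reverse (249 and 33.8, ratio 0.141), chr2:84340904-84408703 reverse (208 and 39.4, ratio 0.196) and chr7:4827340-4863315 reverse (353 and 70.1, ratio 0.206). That of chr4:94719930-94825776 forward gave 156 and 44.5, a ratio of 0.295. All 5 were in the later rows with an uneven spot in the control. With normexp background correction (offset 50) and quantile normalization their log2 ratios, -3.01 to -1.76 as measured here, were -1.82 to -0.84. The offset shrinks ratios of such signals by itself. Another probe of the locus was measured for 2 of the 5, and none of these met the criteria. At the chromosome 2 locus another probe gave 31.0 and 39.3, a ratio of 1.31, and at the chromosome 4 locus others gave 79.7 and 88.2 and, from an overlapping interval, 28125 and 23337, with ratios of 1.15 and 0.861. Of same-strand genes within 100 kb of these intervals, Isoc2b, 11 kb from the chr7:4827340-4863315 probe, gave 406 and 264, a ratio of 0.675. Tfpi, an inhibitor of coagulation 27.6 kb from the chromosome 2 probe, had a ratio of 1.33, and Gramd1b, 70.1 kb from the chromosome 9 probe, 1.42.

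The highest ratio among probes measured on both arrays came from the reverse probe of chr17:6265275-6362150, with 34.6 in the control and 260 after CHIR99021, a ratio of 7.80. Next were the forward probe of chr5:110891642-110918642 (57.6 and 294, ratio 5.29), the reverse probe of chr16:34559623-34560462 (45.2 and 200.2, ratio 4.60) and the reverse probe of chr19:4991356-4993113 (80.4 and 355, ratio 4.58). Then came forward probes of chr14:61321789-61325711 (111 and 375, ratio 3.49), chr14:79311982-79334451 (275 and 744, ratio 2.80) and chr1:81632600-81644175 (114 and 277, ratio 2.52). These 7 were all in the later rows, and 5 of the 7 had an uneven spot after CHIR99021, the exceptions being the chromosome 5 probe and the chr14:61321789-61325711 probe. Their log2 ratios of 1.34 to 2.96 were 0.98 to 1.63 with normexp and its offset of 50, which shrinks such ratios by itself. Another probe of the chromosome 16 locus gave 236 and 163, a ratio of 0.717. Spata13, a guanine exchange factor 61.1 kb from chr14:61321789-61325711 on the same strand, gave 228 and 375, a ratio of 1.71. Npas4, a neuronal transcription factor 7.39 kb from the chromosome 19 probe on the same strand, had a ratio of 0.808, and Fbrsl1, 94.2 kb from the chromosome 5 probe, 1.17.

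Among probes seen on 1 array only, the largest limits in the lower direction were chr1:87613025-87631604 forward, with 310 in the control and at least 11.4-fold lower, and chr4:101040523-101080248 reverse at least 10.8-fold. Those of chr11:120046656-120050065 forward and chrX:8898275-8909200 forward were at least 10.2-fold and 9.97-fold. In the higher direction, chr2:116796887-116797441 forward reached 558 after CHIR99021 and was at least 24.4-fold higher. Outside chromosome 18, whose regions are not named, it was followed by chr3:78982395-79094345 reverse at 21.2-fold, chr6:128116450-128147150 forward at 19.4-fold and chr8:82836971-82849309 reverse at 15.9-fold, each as a lower limit. All 8 came from an uneven spot in the later rows. With normexp background correction (offset 50) and quantile normalization their log2 ratios were smaller than these limits. They ran from -2.49 to -2.005 for the lower and from 2.60 to 2.84 for the higher probes. The offset shrinks ratios against a dim signal by itself. A second probe overlapping the chromosome 3 interval gave 48.9 and 47.7, a ratio of 1.01.

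The changed probes of the earlier rows outside the first 2 loci were looked at after their values were seen. The reverse probe of chr5:122048289-122068947 gave 187 and 57.0, a ratio of 0.316, while Acad12, an acyl-CoA dehydrogenase family gene 4.24 kb away on the same strand, gave 115 and 97.5, a ratio of 0.878. That of chr7:111526943-111545093 forward gave 651 and 356, a ratio of 0.567, and another probe of the locus 173 and 209, a ratio of 1.25. At chr1:95871175-95886625 the forward probe gave 932 and 540, a ratio of 0.601. Of the higher ones, chr4:123572090-123581365 reverse gave 75.8 and 169, a ratio of 2.32, and a second probe of the region 2505 and 2579, a ratio of 1.07. The reverse probe of chr17:41231055-41249764 gave 130 and 266, the forward probe of chr2:59235155-59242518 gave 214 and 428, and the reverse probe of chr19:5834117-5835940 gave 444 and 736. These 3 had ratios of 2.12, 2.08 and 1.72 from even spots, and their loci held no other probe. The last 2 higher probes of the earlier rows were chr4:59093960-59122541 reverse, at least 5.22-fold higher from an uneven spot, and 1 on chromosome 18. Pkp4, a plakophilin of cell junctions 44.6 kb from the chromosome 2 probe on the same strand, had a ratio of 1.19.

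Whether region probes were detected varied with the genes around them. Of the 4358 region probes with a position, 2751 had a probe of a protein-coding gene within 100 kb on the same strand. On the control array 37.8% of region probes were well above background where that gene was, 30.4% where it was not and 29.7% where there was no such gene. With genes on the opposite strand these shares were 35.2%, 34.1% and 31.6%. After CHIR99021 the same-strand shares were 36.1%, 26.8% and 28.1%.

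Ratios of region probes and of their nearest same-strand gene, both measured on both arrays, had r of 0.31 over 104 region probes within 5 kb (84 genes). Beyond that r was 0.09 for 173 probes at 5 to 20 kb and 0.04 for 389 at 20 to 100 kb. For genes on the opposite strand within 5 kb r was 0.30 over 68 probes. These points share both arrays, and some share a gene. Of the 33 lower region probes 17 had a same-strand gene within reach. For 12 of these probes that gene was measured on both arrays, with Bnip1 standing for 3 of the 12, and for 1 it was lower, namely Styk1. Of the 40 higher ones 21 had such a gene, 16 were measured on both arrays, 1 was higher and 1 was lower. The lower one was Sgk1, a kinase of cell survival and ion transport, at 12125 and 4155, a ratio of 0.356. It lay 18.8 kb from chr10:21688115-21710890 forward, whose later-row probe reached 256 after CHIR99021 and was not well above background in the control, at least 11.2-fold higher from a spot that was not uneven. Another probe of that region (5.05 and 5.55) and a probe of an overlapping interval (5.71 and 6.34) were below that level in both conditions.

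Detection also followed what the probe was made of and the length of its interval. In 5 classes of 411 to 1309 probes, from low to high G plus C content, the share well above background on the control array was 26.3%, 30.1%, 27.1%, 41.6% and 49.8%, and it was 77.6% among the 58 probes of 70% or more. The region probes had a median of 45.0% G plus C and all other probes 41.7%. In 5 classes from short to long intervals the share was 23.5%, 32.0%, 34.5%, 35.3% and 41.2%. Probes with a hexamer were well above background in 39.4% and those without in 32.9%. Probes within 200 bases of the 3′ end of the interval were at 29.1%, and those over 20000 bases from it at 40.7%. Only long intervals can hold such distant probes, so that distance and interval length were not told apart. By chromosome the share ran from 22.2% on chromosome 18 to 42.2% on chromosome 17. Forward and reverse probes were close, at 32.7% and 33.9%.

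A list of 40 named long noncoding RNAs gave a comparison. On the array were 32 of them, and 22 were well above background in the control and 21 after CHIR99021. For 21 measured on both arrays the ratios ran from 0.568 to 1.77 with a median of 1.13. Snhg1, a host gene of small nucleolar RNAs, had the highest of these ratios and Peg13, an imprinted transcript, the lowest. No region probe is assigned to any of these names by the array files.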

How the data were processed

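Total RNA of mDE6 cells was amplified, labelled with Cy3 and hybridised by the authors to 1-colour Agilent arrays, 1 per condition. Per spot, the authors deposited a processed intensity, with background subtracted and not normalized between arrays. The file header names Feature Extraction 10.7.1.1, the submitters' processing notes 9.5.1.1. It also names a mouse design on mm9, whereas the Methods name a human array. A separate deposited table holds normalized intensities, identically distributed on both arrays. The flags well above background and outlier are scanner software calls, and 2 region spots flagged as outliers were left out.

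Here each processed signal was divided by the 75th percentile of its array, 487 in the control and 469 after CHIR99021, and log2 values were averaged over the spots of a probe. Printed signals are unscaled and ratios are scaled. A probe was tested where either array showed it well above background. The limits for lower probes follow the methods, which print the Z-score without a sign, and those for higher probes were set here as their mirror image. Where 1 array was not well above background, the limit was taken against the higher of the dim signal and the lowest signal well above background there (23.7 in the control and 26.3 after CHIR99021). The number of arrays limits the precision. Between spots of 282 probes printed 10 times the median SD of the log2 ratio was 0.03.

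Named regions were the 8 lowest and 8 highest ratios that met the criteria on both arrays, the 6 strongest signals, regions whose tested probes all changed one way, the 4 largest limits in each direction, and the 3 strongest regions with both orientations. Others were named after their values were seen, and so were the joined loci. Regions on chromosome 18 were counted but not named. Members and lists were chosen with earlier results of these data known. RefSeq gene types (GRCm38.p6) served for names only. The criteria were tested on simulated data, which held no uneven spots and no effect of array rows and so do not bear on these. Alternatives covered scaling, background (normexp with an offset of 50), filters, the Z-score, uneven spots and array rows. Python 3.11.15 (numpy 2.4.6, pandas 2.3.3, matplotlib 3.10.9) and limma 3.58.1 in R 4.3.3 were used.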

Additional observations from a re-analysis of the deposited data

How the results depend on the processing

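The shares well above background (33.3% in the control, 31.4% after CHIR99021) were 58.0% and 55.1% by the positive-and-significant flag, 30.7% and 29.1% in the earlier rows, and 35.9% and 33.8% in the later rows. Without uneven spots they were 32.5% and 30.6%. These lie within binomial intervals, which take probes as independent and do not cover the spread between cultures or arrays. The 33 lower and 40 higher probes became 185 and 170 by the ratio alone (11.65% and 10.71% against 9.68% and 8.24% of all probes) and 64 and 71 with the median and MAD (4.03% and 4.47% against 4.88% and 4.51%). They became 14 and 10 with the Z-score taken within the earlier rows (7 and 6 shared; 1.97% and 1.41% against 2.62% and 1.93% of all probes) and 18 and 21 without uneven spots (9 and 14 shared; 1.26% and 1.47% against 2.47% and 1.89%). The higher count alone moved past 1.5 times to 21 where both arrays had to be well above background (1.63% against 2.11% of all probes) and to 75 with no filter (1.69% against 1.82%). Other scalings, normexp, the authors' table, the floor and region-only neighbours and, for the lower count, both arrays or no filter, gave 23 to 47 lower and 39 to 47 higher. The lower share was 1.06% against 1.62% of all probes with no filter, and 1.78% against 2.45% with both arrays. In the others, region-only neighbours aside, it was 1.83% to 2.33% against 2.59% to 2.94%. There the higher share was 2.46% to 2.96% against 2.32% to 2.65%. The median log2 ratio of 0.03 was 0.0735 with median scaling, -0.0209 unscaled and -0.0198 with the percentile over probes detected on both arrays, where the median of all probes was 0.0794, -0.0151 and -0.0139. No named region that met the criteria changed sign, but these settings were not apt to reverse one. Other scalings and the authors' table moved the log2 ratios of named probes by 0.20 at most. Those that met the criteria had been picked for larger ratios. Normexp added an offset of 50, which draws ratios of dim probes towards 1 without reversing them. With normexp, the chromosome 17 log2 ratios of -2.06, -2.03 and -1.85 were -1.25, -1.87 and -1.19, those of chromosome 6 were -1.27, -0.65 and -0.98, the lowest and highest (-3.01 and 2.96) were -1.82 and 1.63, and those of chr2:116796887-116797441 forward and chr1:87613025-87631604 forward, printed as limits of at least 24.4-fold and 11.4-fold, were 2.84 and -2.49. No paired analysis was possible because there was a lone array for either condition. For all of these changes the cause was not tested. Dim signals limit what can be read, since 64.3% of the region probes were not well above background on either array.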
